A study of Homo sapiens with 45 samples.

Results

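The miR-23a and miR-23b clusters are a pair of human loci that each carry 3 miRNA hairpins, one of the miR-23, one of the miR-27 and one of the miR-24 family. Their mature strands were followed through 45 small-RNA libraries of HCT116 cells and of knockout derivatives. The members were chosen by name, as 10 listed strands out of 2817 mature miRNAs in the count tables: 5 strands from the 3p arm and 5 from the 5p arm. The rule for that choice used no measured value, but earlier results of these data were known when it was made. 0 of the 573 sequence-variant entries in the tables belonged to a member. HCT116 is an epithelial line from a human colorectal carcinoma. Whole-cell small RNA came from 8 genotypes, AGO1-/-, AGO2-/-, AGO1-/- AGO2-/- (AGO1/2 KO), AGO1-/- AGO2-/- AGO3-/- (AGO1/2/3 KO), TNRC6A-/-, TNRC6B-/-, TNRC6A-/- TNRC6B-/- (TNRC6A/B KO) and wild type (WT). RNA bound to Argonaute came from pulldowns with an AGO1 antibody in AGO1 KO and WT cells, an AGO2 antibody in AGO2 KO and WT cells, and a pan-AGO antibody in AGO1/2/3 KO, AGO1/2 KO and WT cells. Each of the 15 groups held 3 libraries numbered as biological replicates. The labels name no clones and no preparation dates, so a difference between lines or between preparations that does not come from the knockout cannot be told apart from its effect. The p-values below measure the spread between these libraries.

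Argonaute proteins hold a mature miRNA and are guided by it to mRNAs, and TNRC6 proteins bind Argonaute and recruit the enzymes that remove poly(A) tails. A hairpin is cut by DROSHA and then by DICER into a short duplex, of which Argonaute usually keeps one strand (the guide) while the other (the passenger) is lost. In these clusters the 3p strands are the usual guides. miR-23 and miR-27 have been studied in blood vessel growth, in immune cells and in lipid metabolism, and miR-24 in cell cycle and DNA damage responses.

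The 10 mature sequences are shown because the members fall into families by their seed, bases 2 to 8 counted from the 5′ end, which pairs with target mRNAs. They were read from RefSeq hairpin records of GRCh38.p14, where all 10 names matched. The seed is in capitals.
hsa-miR-23a-3p: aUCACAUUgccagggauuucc
hsa-miR-23b-3p: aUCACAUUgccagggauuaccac
hsa-miR-27a-3p: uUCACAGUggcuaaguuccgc
hsa-miR-27b-3p: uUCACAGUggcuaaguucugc
hsa-miR-24-3p: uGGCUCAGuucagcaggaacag
hsa-miR-23a-5p: gGGGUUCCuggggaugggauuu
hsa-miR-23b-5p: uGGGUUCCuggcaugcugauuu
hsa-miR-27a-5p: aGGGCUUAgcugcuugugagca
hsa-miR-27b-5p: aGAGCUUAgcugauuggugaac
hsa-miR-24-2-5p: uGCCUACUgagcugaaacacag

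miR-23a-3p and miR-23b-3p share one seed, and miR-27a-3p and miR-27b-3p share another. Each pair is identical over the first 18 bases. The single difference within the shared length is U19A from miR-23a-3p to miR-23b-3p and C19U from miR-27a-3p to miR-27b-3p, with positions counted from 1 at the 5′ end. miR-23b-3p is 23 bases long and miR-23a-3p 21. Reads that end at or before base 18 cannot be told apart within a pair, and how the authors assigned reads with several matches is not stated, so the split between these paralogs is uncertain. Among the 5p strands miR-23a-5p and miR-23b-5p also share a seed, while miR-27a-5p and miR-27b-5p do not.

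The miR-23a cluster lies on chromosome 19, chr19:13836287-13836659 on the minus strand of GRCh38, within an exon of the long noncoding gene AC020916.1 in GENCODE. The miR-23b cluster lies on chromosome 9, chr9:95085208-95086088 on the plus strand, inside the protein-coding gene C9orf3. There MIR23B and MIR27B are intronic, and MIR24-1 lies within an annotated exon of one transcript. The third hairpin of each cluster gives the same miR-24-3p, so its counts cannot be divided between the loci. The pair of miR-24 hairpins is shown for that reason, with miR-24-3p in capitals.
MIR24-2: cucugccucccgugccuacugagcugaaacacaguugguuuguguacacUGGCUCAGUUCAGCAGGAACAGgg
MIR24-1: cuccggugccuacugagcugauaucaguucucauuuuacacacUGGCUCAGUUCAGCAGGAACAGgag

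The 5p strands of these hairpins do differ, and miR-24-2-5p is therefore read from the miR-23a cluster only. The other strand of the miR-23b cluster, miR-24-1-5p, was not a member and was rare, with 12.1, 12.9 and 8.84 TMM-scaled counts per 1000000 (CPM) in the WT whole-cell libraries. In the strand balances below, miR-24-2-5p is set over miR-24-3p from both loci.

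Total counts ranged from 1783590 to 9860313 per library and mature miRNA counts from 39851 to 7142721. In the WT AGO1 pulldown, replicate 1 stood apart, with 27.2% of its counts in miRNAs against 13.6 and 11.5% in replicates 2 and 3. So did replicate 3 of the AGO1/2/3 KO pan-AGO pulldown, with 3.00% against 10.6 and 11.05%. Calls lost or gained without either are named below. AGO1 mRNA fragments were 4 to 11 counts in whole-cell libraries of AGO1 KO, 3 to 5 in those of AGO1/2 KO and 1 to 5 in those of AGO1/2/3 KO, against 17 to 33 in WT. AGO3 fragments were 1 to 9 in AGO1/2/3 KO against 20 to 38 in WT. TNRC6B fragments were 6 to 18 in TNRC6B KO and 11 to 16 in TNRC6A/B KO against 27 to 33 in WT, but 7 to 15 in AGO1/2/3 KO, where the gene is not the target. TNRC6A fragments were 9 to 12 in TNRC6A/B KO against 15 to 21 in WT, but overlapped WT in TNRC6A KO, at 5 to 16. They were also 10 to 15 in AGO1/2/3 KO and 5 to 19 in AGO2 KO, where TNRC6A is not the target. AGO2 fragments overlapped WT in whole-cell RNA of each AGO2 knockout line. These are raw counts of the gene's transcript with most counts in each library, not scaled for depth. Total counts were 2727180 to 4566817 in AGO1/2/3 KO whole-cell libraries and 5107698 to 5487181 in those of WT. The deleted parts are not stated, so fragments from outside them check nothing. All 6 intestinal epithelial marker miRNAs, among them miR-200c-3p and miR-192-5p, were counted in every group. Their sum was 579 to 756 per 1000000 miRNA counts in AGO1/2/3 KO whole-cell RNA and 13476 to 14219 in WT. The 5 blood cell markers summed to 388 to 555 in AGO1/2/3 KO and 88.6 to 119 in WT, and the 4 markers of stroma and endothelium to 706 to 818 and 2422 to 2749. The 3 muscle markers summed to 139 to 199 and 41.5 to 57.8, the liver marker to 145 to 168 and 50.1 to 81.8, and the 2 neural markers to 36.2 to 118 and 189 to 218. None of these markers was at 0 in any group, and their part in the results was not tested.

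Whole-cell values below are TMM-scaled CPM, which set the middle of the miRNAs level between libraries. A difference is the log2 fold change of knockout over WT with its standard error (SE), n = 3 per group, and is called at an adjusted p of 0.05 or less. The choice of scale matters in knockouts where miRNAs take a different share of the small RNA. In AGO1/2/3 KO the median of all tested miRNAs was 0.18 with TMM, 1.30 per miRNA total and -0.33 per total of all counted RNAs, and in TNRC6A/B KO 0.07, -0.11 and 1.08. Ratios of 2 members within a library do not depend on the scale. In bulk RNA, fewer molecules per cell and fewer cells that make a strand cannot be told apart.

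In WT whole-cell RNA the clusters spanned from one of the most abundant miRNAs of the line to strands of low counts. miR-23a-3p ranked number 6 and miR-24-3p number 11 among 2806 miRNAs with counts in that group. Their levels in the 3 libraries were 28604, 32237 and 28322 TMM-scaled CPM for miR-23a-3p and 20208, 23132 and 19022 for miR-24-3p. miR-23b-3p followed with 3468, 3434 and 3004. The miR-27 guides were far lower, with 499, 516 and 468 for miR-27a-3p and 329.9, 361 and 322 for miR-27b-3p. Members of one cluster thus differed widely in counts, but counts of different sequences also carry the ligation and amplification biases of small-RNA libraries.

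Among the 5p strands miR-23a-5p was highest, with 994, 839 and 835 TMM-scaled CPM, and miR-27a-5p had 503, 555 and 512. That range overlapped that of miR-27a-3p, and the strands of the miR-27a hairpin did not differ beyond their spread in WT cells. miR-27b-5p had 121, 133 and 137, miR-24-2-5p 84.5, 120.5 and 92.8 and miR-23b-5p 68.4, 81.8 and 57.4. No other neighbours in this order overlapped, although miR-27b-5p, miR-24-2-5p and miR-23b-5p lay close to each other. Seen as a share of their hairpin's 2 strands, the 5p arm held 3.36, 2.54 and 2.86% of miR-23a, 1.93, 2.33 and 1.88% of miR-23b, 26.8, 26.96 and 29.8% of miR-27b and 50.2, 51.8 and 52.3% of miR-27a counts in the 3 WT libraries.

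**Figure D1:**
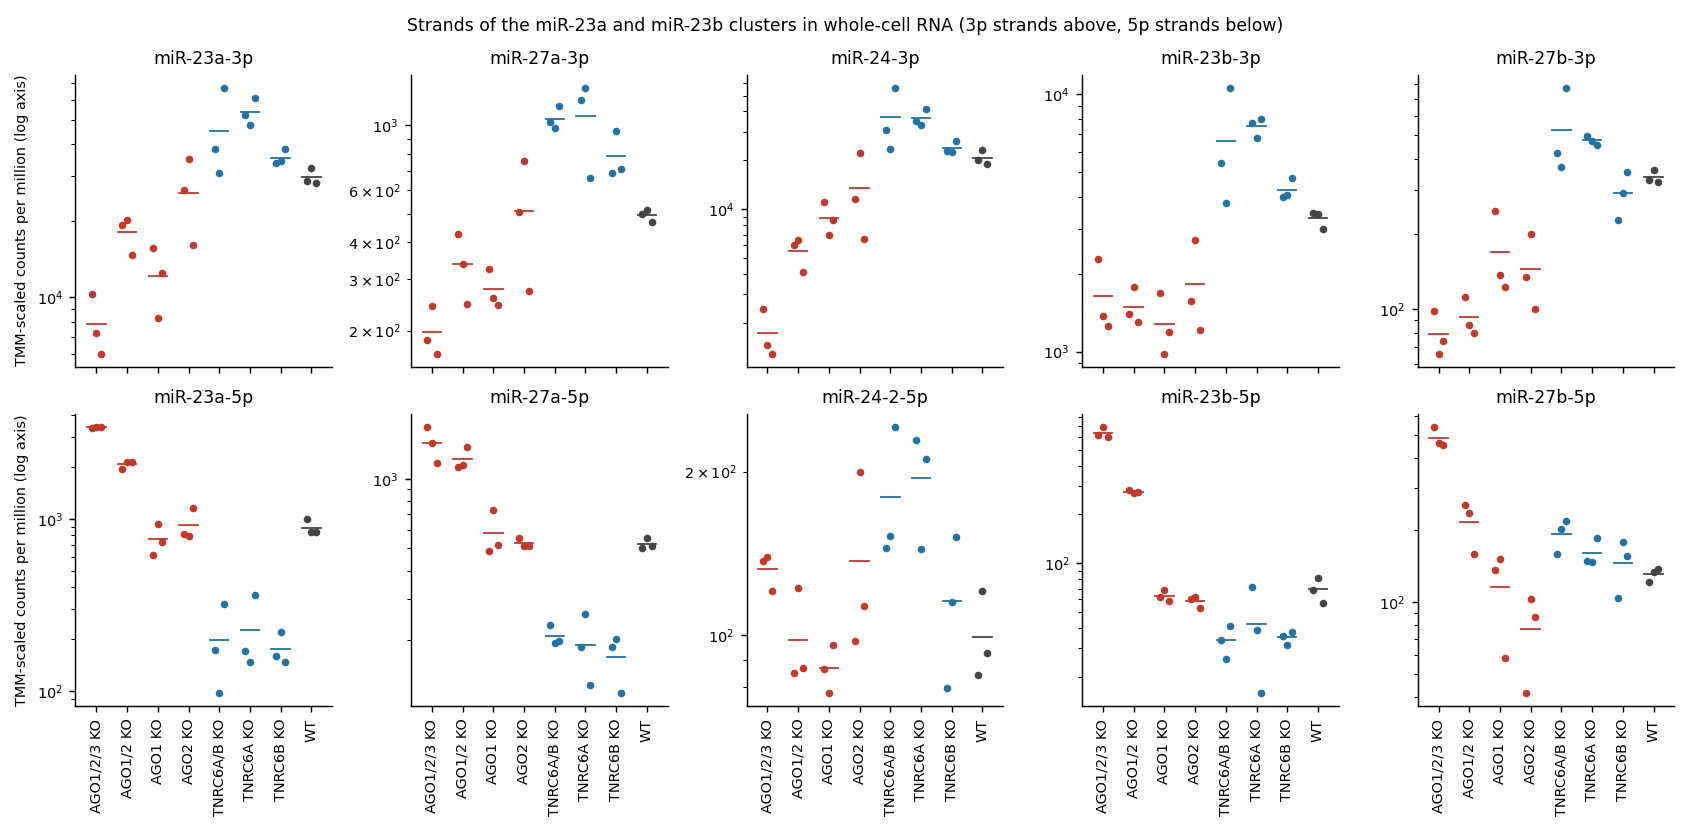
TMM-scaled counts per 1000000 (log axis) of the 10 cluster strands in the 24 whole-cell libraries, 3 points and a mean line per group, with Argonaute knockouts in red, TNRC6 knockouts in blue and WT in grey. The mean of each 3p strand is lowest in an Argonaute knockout, in AGO1/2/3 KO for 4 of the 5, and 4 of the 5 5p strands are highest in AGO1/2/3 KO.

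Loss of AGO1, AGO2 and AGO3 together moved the strands of both clusters in opposite directions. All 5 3p strands fell and 4 of the 5 5p strands rose in AGO1/2/3 KO whole-cell RNA, so that 4 members were called higher where 6.38% of 1990 tested miRNAs were, and 5 were called lower where 10.8% were. The median difference was -1.92 over the 3p strands and 1.89 over the 5p strands, beside 0.18 over all tested miRNAs.

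The guide miR-24-3p had 2445, 1467 and 1299 TMM-scaled CPM in AGO1/2/3 KO against 20208, 23132 and 19022 in WT. The groups lay far apart, a fall of 11.98-fold (log2 difference -3.58 ± 0.39 (SE), adjusted p = 8.46e-10). miR-23a-3p had 10280.5, 7201 and 6004 in AGO1/2/3 KO against 28604, 32237 and 28322 in WT, with no overlap (log2 difference -1.92 ± 0.33 (SE), adjusted p = 1.55e-05). The miR-27 guides fell as well, miR-27b-3p to 97.8, 66.0 and 74.2 in AGO1/2/3 KO against 329.9, 361 and 322 in WT (-2.10 ± 0.38 (SE), adjusted p = 3.96e-05), and miR-27a-3p by 1.31 on the log2 scale (adjusted p = 0.00525).

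Among the guides, whose differences from each other were not tested, miR-23b-3p, the less abundant sister of miR-23a-3p, had the smallest fall. It had 2299, 1371 and 1253 TMM-scaled CPM in AGO1/2/3 KO against 3468, 3434 and 3004 in WT, a log2 difference of -1.01 ± 0.34 (SE), adjusted p = 0.0305, with no overlap. Per miRNA total the sign turned for miR-23b-3p, to 0.11 (adjusted p = 0.703), and miR-27a-3p lost its call at -0.17 (adjusted p = 0.698). The falls of miR-24-3p, miR-23a-3p and miR-27b-3p were called on every scale, at -2.46, -0.80 and -0.96 per miRNA total and -4.00, -2.35 and -2.57 per total of all counted RNAs.

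On the passenger side miR-23b-5p had 616, 689 and 603 TMM-scaled CPM in AGO1/2/3 KO against 68.4, 81.8 and 57.4 in WT. This was the largest change of the 5p strands, 9.14-fold (log2 difference 3.19 ± 0.33 (SE), adjusted p = 2.32e-10). miR-23a-5p had 3375, 3410.0 and 3396 in AGO1/2/3 KO against 994, 839 and 835 in WT (1.93 ± 0.34 (SE), adjusted p = 2.04e-05), and miR-27b-5p 538, 462 and 455 against 121, 133 and 137 (1.89 ± 0.33 (SE), adjusted p = 1.94e-05). miR-27a-5p rose by 1.44 ± 0.29 (SE; adjusted p = 0.000194). None of these 4 groups overlapped its WT group, and all 4 were called on each of the 3 other scales, the smallest at 1.00 for miR-27a-5p per total of all counted RNAs. miR-24-2-5p did not pass, with a log2 difference of 0.42 ± 0.36 (SE), adjusted p = 0.494. It passed per miRNA total, at 1.56 (adjusted p = 0.000687), and was -0.058 per total of all counted RNAs.

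With AGO3 still present, in AGO1/2 KO, 3p strands also fell and 5p strands rose. 3 members were called higher and 3 lower, where 2.86% and 6.08% of tested miRNAs were. miR-24-3p had 5996, 6479 and 4105 TMM-scaled CPM in AGO1/2 KO against 20208, 23132 and 19022 in WT (-1.91 ± 0.36 (SE), adjusted p = 0.000177). miR-27b-3p fell by 1.86 ± 0.36 (SE; adjusted p = 0.000268) and miR-23b-3p by 1.14 ± 0.34 (adjusted p = 0.0237). The risers were miR-23b-5p with 281, 272 and 275 in AGO1/2 KO against 68.4, 81.8 and 57.4 in WT (1.99 ± 0.33 (SE), adjusted p = 3.66e-05), miR-23a-5p (1.22 ± 0.33 (SE), adjusted p = 0.0116) and miR-27a-5p (1.21 ± 0.29 (SE), adjusted p = 0.00348). All 6 groups lay apart from WT. The abundant miR-23a-3p did not pass, at -0.72 ± 0.32 (SE), adjusted p = 0.175, nor did miR-27a-3p, at -0.55 ± 0.33 (SE), adjusted p = 0.34, or miR-27b-5p, at 0.74 ± 0.34 (SE), adjusted p = 0.191. Per total of all counted RNAs miR-23a-5p and miR-27a-5p lost their calls, at 0.64 (adjusted p = 0.168) and 0.63 (adjusted p = 0.212), and per miRNA total miR-23b-3p did, at -0.56 (adjusted p = 0.089). Leaving out AGO1/2 KO replicate 3 left 3 calls.

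Set directly against AGO1/2 KO, the AGO1/2/3 KO libraries showed 2 members higher and 2 lower, where 0.452% and 3.77% of tested miRNAs were called. miR-24-3p had 2445, 1467 and 1299 TMM-scaled CPM in AGO1/2/3 KO against 5996, 6479 and 4105 in AGO1/2 KO (-1.67 ± 0.36 (SE), adjusted p = 0.00242), and miR-23a-3p fell by 1.20 ± 0.33 (adjusted p = 0.02). miR-23b-5p had 616, 689 and 603 against 281, 272 and 275 (1.20 ± 0.30 (SE), adjusted p = 0.00944), and miR-27b-5p 538, 462 and 455 against 255, 237 and 159 (1.15 ± 0.33 (SE), adjusted p = 0.0281). The groups did not overlap for any of the 4. Per total of all counted RNAs the miR-23a-3p fall lost its call, at -1.04 (adjusted p = 0.0653). Single libraries also decided calls: without AGO1/2/3 KO replicate 2 there was 1 call, and without AGO1/2 KO replicate 1 or replicate 2 there were 2.

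Every whole-cell knockout was set against the same 3 WT libraries, so these comparisons are not independent. In AGO1 KO 0 members were higher and 4 lower, where 6.53% and 3.82% of tested miRNAs were called. The 4 were 3p strands, and their groups did not overlap with WT. miR-23a-3p had 15585, 8264 and 12480.3 TMM-scaled CPM in AGO1 KO against 28604, 32237 and 28322 in WT (-1.30 ± 0.33 (SE), adjusted p = 0.00622), and miR-23b-3p 1686, 982 and 1187 against 3468, 3434 and 3004 (-1.36 ± 0.34 (SE), adjusted p = 0.00604). miR-24-3p (-1.22 ± 0.35 (SE), adjusted p = 0.0179) and miR-27b-3p (-0.97 ± 0.32 (SE), adjusted p = 0.0449) passed with less room, and leaving out AGO1 KO replicate 2, WT replicate 1 or WT replicate 2 left 2 calls. Per miRNA total miR-27b-3p missed, at -0.52 (adjusted p = 0.215). The 5p strands had log2 differences between -0.23 and 0.14.

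In AGO2 KO 0 members passed in either direction, where 0.201% of tested miRNAs were called higher and 0.603% lower. The 3 libraries differed among themselves: miR-24-3p had 11534, 22331 and 6549 TMM-scaled CPM in AGO2 KO against 20208, 23132 and 19022 in WT, and miR-27b-3p 134, 199.6 and 99.7 against 329.9, 361 and 322. For miR-27b-3p all 3 AGO2 KO libraries lay below all 3 WT libraries (-1.23 ± 0.34 (SE), adjusted p = 0.0695). For miR-24-3p replicate 2 lay within the WT range (-0.63 ± 0.35 (SE), adjusted p = 0.525). Without AGO2 KO replicate 2, 1 member was called, miR-27b-3p at -1.57 (adjusted p = 0.0297), and it also passed per total of all counted RNAs with all libraries, at -1.55 (adjusted p = 0.00781).

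**Figure D2:**
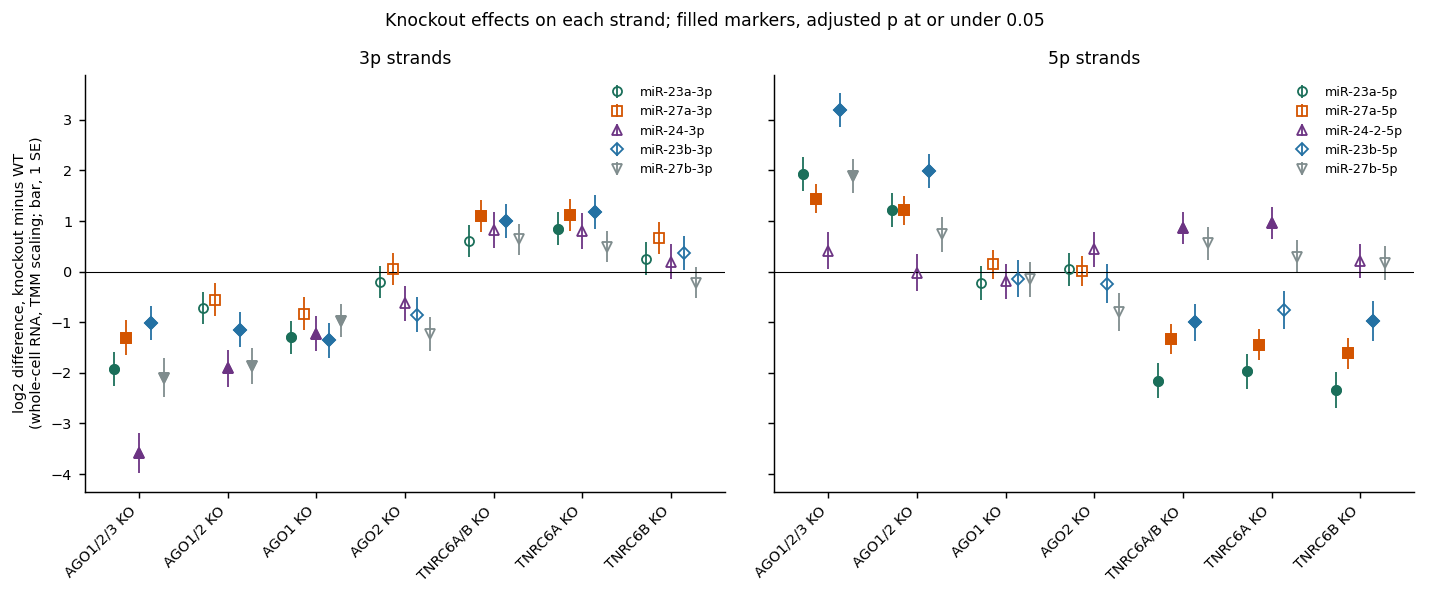
Log2 differences of knockout minus WT in whole-cell RNA (TMM scaling, bars of 1 SE) for the 3p strands (left) and the 5p strands (right), with filled markers where the adjusted p was at or under 0.05. AGO1/2/3 KO has all 5 3p strands below 0 and 4 called 5p strands above 0, and the TNRC6 knockouts have miR-23a-5p and miR-27a-5p below 0.

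The strand balance of each hairpin, log2 of 5p over 3p counts within a library, needs no scale between libraries. In AGO1/2/3 KO all 5 member hairpins shifted toward the 5p arm, where 30.6% of 160 testable hairpins did, with a median shift of 3.92 over the members and -0.15 over all. For miR-23b the balance was -1.89, -0.99 and -1.05 in AGO1/2/3 KO against -5.62, -5.36 and -5.66 in WT (shift 4.24 ± 0.43 (SE), adjusted p = 4.38e-08). For miR-24-2 it was -4.11, -3.36 and -3.38 against -7.87, -7.56 and -7.65 (4.07 ± 0.34, adjusted p = 4.47e-09). The 5p arm held most counts of the miR-27 hairpins. It held 84.6, 87.5 and 86.0% of miR-27b counts in AGO1/2/3 KO against 26.8, 26.96 and 29.8% in WT. For miR-27a it held 90, 85.5 and 87.5% against 50.2, 51.8 and 52.3%. Few 3p counts lie behind these shares, 27 of miR-27b-3p and 70 of miR-27a-3p over the AGO1/2/3 KO libraries. In miR-23a the 5p arm held 24.7, 32.1 and 36.1% against 3.36, 2.54 and 2.86%, still the minor arm.

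In AGO1/2 KO all 5 hairpins also shifted toward the 5p arm (21.2% of all), by 1.79 to 3.14, and the 5p arm held 69.6, 73.3 and 66.7% of miR-27b counts. The step to AGO1/2/3 KO shifted 4 of 5 further (16.2% of all), by 0.95 to 2.14 over the 5, where miR-23b missed at adjusted p = 0.0535. In AGO1 KO the shifts were 0.78 to 1.27, and 1 hairpin, miR-24-2, passed (1.07 ± 0.34, adjusted p = 0.0464, against 6.88% of all). That call was lost without AGO1 KO replicate 2 or 3 or any WT library, while without AGO1 KO replicate 1 4 hairpins passed. In AGO2 KO 0 of 5 passed in either direction, with shifts of 0.075 to 1.21. Without AGO2 KO replicate 2, 1 hairpin passed, miR-24-2.

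**Figure D3:**
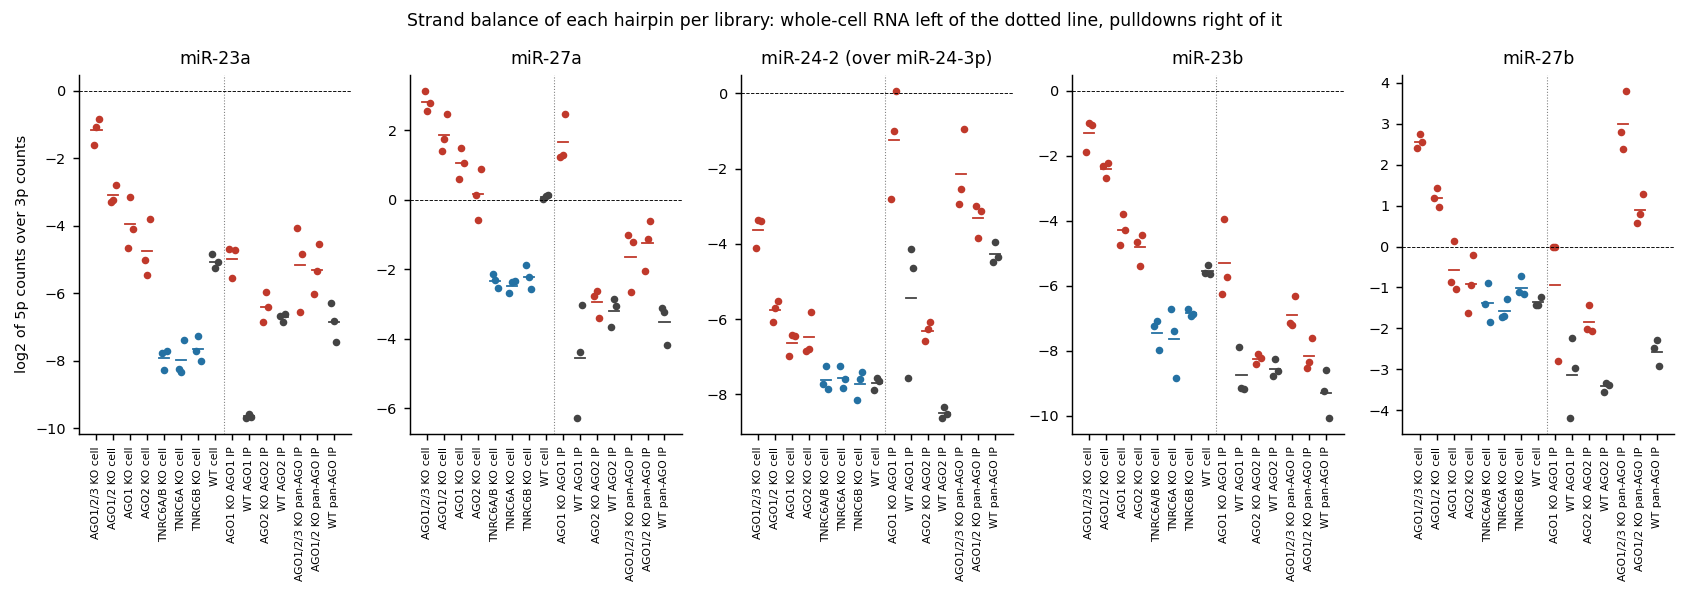
Log2 of 5p over 3p counts for each member hairpin in the 45 libraries, 3 points and a mean line per group, with whole-cell RNA left of the dotted line and pulldowns right of it. In whole-cell RNA the balance is highest in AGO1/2/3 KO for all 5 hairpins, and in TNRC6 knockouts (blue) it is below WT for miR-23a, miR-27a and miR-23b.

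miR-23a-5p and miR-27a-5p, which were higher in AGO1/2 KO and AGO1/2/3 KO, were lower in TNRC6A KO, TNRC6B KO and TNRC6A/B KO. These lines had broad differences from WT: 23.7%, 23.7% and 24.9% of tested miRNAs were called higher and 18.2%, 18.6% and 19% lower, in that order of lines, and of the 10 members 4, 0 and 3 were called higher and 2, 3 and 3 lower. Such counts are near the background. 28S and 18S ribosomal fragments took 43.7 to 53.7% of counts in the TNRC6 knockouts, 13.9 to 31.3% in the Argonaute knockouts and 29.9 to 37.1% in WT. The TNRC6 libraries are also titled in another style than the Argonaute and WT whole-cell libraries. The part of either in these differences was not tested.

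miR-23a-5p had 169, 147 and 361 TMM-scaled CPM in the TNRC6A KO libraries, 159, 219.8 and 147 in those of TNRC6B KO and 173, 97.2 and 319 in those of TNRC6A/B KO, against 994, 839 and 835 in WT. All 9 knockout libraries were below all WT libraries, with log2 differences of -1.97 ± 0.35, -2.33 ± 0.36 and -2.16 ± 0.35 (SE), the largest adjusted p being 1.33e-05. miR-27a-5p had 186, 259.9 and 128, 187, 202 and 118 and 232, 194 and 199 in the same 3 lines, against 503, 555 and 512 in WT. Again no library overlapped (-1.44 ± 0.30, -1.62 ± 0.31 and -1.33 ± 0.30, the largest adjusted p being 0.000345). Per total of all counted RNAs the falls of miR-23a-5p stayed called, while miR-27a-5p kept its call in TNRC6B KO and missed in TNRC6A KO and TNRC6A/B KO, at -0.74 (adjusted p = 0.0514) and -0.57 (adjusted p = 0.123).

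miR-23b-5p was called lower in TNRC6B KO (-0.98 ± 0.39 (SE), adjusted p = 0.0411) and TNRC6A/B KO (-1.01 ± 0.37 (SE), adjusted p = 0.0246), and missed both calls per total of all counted RNAs, at -0.46 and -0.30. In TNRC6A KO it did not pass. miR-27b-5p, the remaining riser of AGO1/2/3 KO, had 158, 201 and 217 TMM-scaled CPM in TNRC6A/B KO against 121, 133 and 137 in WT and passed in none of the 3 lines. miR-24-2-5p went the other way and was higher in TNRC6A KO (0.96 ± 0.32 (SE), adjusted p = 0.0146) and TNRC6A/B KO (0.86 ± 0.32 (SE), adjusted p = 0.0256). In TNRC6A/B KO that call was lost per miRNA total, at 0.66 (adjusted p = 0.0934), and without replicate 3, at 0.53 (adjusted p = 0.203).

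The 3p strands were higher or not called. miR-23b-3p had 7771, 6799.7 and 7993 TMM-scaled CPM in TNRC6A KO against 3468, 3434 and 3004 in WT (1.19 ± 0.34 (SE), adjusted p = 0.00387). It was also higher in TNRC6A/B KO, with 5403, 3769 and 10616 (1.00 ± 0.33 (SE), adjusted p = 0.0137), where replicate 3 carried the call: without it the difference was 0.43 (adjusted p = 0.27). That library had 13.2% of its counts in miRNAs, against 8.995 and 8.17% in replicates 1 and 2. miR-27a-3p was higher in TNRC6A KO (1.11 ± 0.32 (SE), adjusted p = 0.00389) and TNRC6A/B KO (1.09 ± 0.32 (SE), adjusted p = 0.00455), and miR-23a-3p in TNRC6A KO (0.85 ± 0.32 (SE), adjusted p = 0.0308). miR-24-3p missed in all 3 lines with TMM, at 0.80 ± 0.35, 0.20 ± 0.35 and 0.82 ± 0.35 in TNRC6A KO, TNRC6B KO and TNRC6A/B KO. In TNRC6B KO 0 of the 3p strands passed with TMM, but per total of all counted RNAs 3 were higher, miR-23a-3p (0.78 (adjusted p = 0.0403)), miR-23b-3p (0.89 (adjusted p = 0.0262)) and miR-27a-3p (1.18 (adjusted p = 0.00398)). Per total of all counted RNAs miR-24-3p passed in TNRC6A KO and TNRC6A/B KO, at 1.45 and 1.51.

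Strand balances separated the hairpins. miR-23a, miR-23b and miR-27a shifted toward the 3p arm in each TNRC6 knockout, 3 of 5 member hairpins in each, where 24.4%, 21.9% and 22.5% of 160 hairpins did in TNRC6A KO, TNRC6B KO and TNRC6A/B KO. The 5p arm of miR-27a held 13.3, 16.2 and 16.3% of its counts in the TNRC6A KO libraries, 21.4, 17.5 and 14.3% in those of TNRC6B KO and 18.5, 16.6 and 14.6% in those of TNRC6A/B KO, against 50.2, 51.8 and 52.3% in WT. The shifts were -2.55 ± 0.36, -2.30 ± 0.36 and -2.41 ± 0.36 (SE). miR-23a shifted by -2.93 ± 0.43, -2.60 ± 0.43 and -2.86 ± 0.43 in the same order. miR-27b and miR-24-2 did not pass in any of the 3 lines, with shifts between -0.21 and 0.36. The miR-27a and miR-27b hairpins have 3p strands that differ at a single base, and the difference between their shifts was not tested.

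Pulldowns from knockout cells measure what an antibody brings down when its target is missing. The values are counts per 1000000 of all counted RNAs. With the AGO1 antibody, all 5 3p strands were far lower in AGO1 KO. In all, 0 members were higher and 8 lower than in WT, where 0.393% and 21.7% of 1780 tested miRNAs were called. Of the 8, miR-23b-5p and miR-27b-5p had 3 counts each over the AGO1 KO libraries. They passed the count filter only through groups where they were higher, so their calls are no result about the members. miR-23a-3p had 139, 130.5 and 39.6 CPM in AGO1 KO against 16583, 11526 and 8979 in WT. That is 120.1-fold lower (log2 difference -6.91 ± 0.81 (SE), adjusted p = 5.28e-08). miR-24-3p had 123, 43.5 and 17.5 against 6097, 1134 and 834, where WT replicate 1 was high (-5.46 ± 0.86 (SE), adjusted p = 4.49e-06). Without that library the difference was -4.01 (adjusted p = 2.23e-05). The other 3 guides fell by 6.49 to 6.69 on the log2 scale. Of these, miR-27a-3p rested on 24 and miR-27b-3p on 6 counts over the AGO1 KO libraries.

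The 5p strands changed less. miR-23a-5p had 5.13, 2.64 and 1.37 CPM in AGO1 KO against 19.9, 14.9 and 10.8 in WT (-2.36 ± 0.74 (SE), adjusted p = 0.0155), and miR-27a-5p 10.3, 5.93 and 12.9 against 7.68, 8.15 and 12.9 (0.011 ± 0.60 (SE), adjusted p = 0.999), which overlapped. All 5 hairpins shifted toward the 5p arm in AGO1 KO (30.9% of 249 hairpins), by 2.20 to 6.24, and all 5 did without WT replicate 1. Counts behind the 5p strands were small in AGO1 KO, where miR-23b-5p was listed at 3 counts over the 3 libraries. There miR-23b-3p had 117 counts, and the miR-27b hairpin 3 5p and 6 3p counts. miR-23b and miR-27b passed the count limit for hairpins only through the other pulldowns, so their shifts of 3.44 and 2.20 are no result. In a fit of these 2 groups alone 3 hairpins were testable, and all 3 were called. Without WT replicate 1 the fall of miR-23b-5p lost its call, at -2.30 (adjusted p = 0.0765). Per miRNA total the 5 guides stayed lower and called, miR-23a-5p turned to 0.87 (adjusted p = 0.152), miR-27a-5p was 3.16 (adjusted p = 8.68e-06), and miR-24-2-5p turned to 1.96 (adjusted p = 0.000522) where it had been -1.17 ± 0.49 (SE), adjusted p = 0.0925. On that scale these 5p values are no result about the members: 2189 of 2632 tested miRNAs were called higher there, with a median of 3.07.

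With the AGO2 antibody the losses were smaller. 0 members were higher and 6 lower in AGO2 KO than in WT, where 44.3% and 24.8% of tested miRNAs were called. miR-24-3p had 3884, 1699.5 and 3401 CPM in AGO2 KO against 16082, 16447 and 14196 in WT (-2.38 ± 0.75 (SE), adjusted p = 0.00681), and miR-27b-3p 68.1, 25.4 and 75.2 against 356, 381 and 344 (-2.68 ± 0.70 (SE), adjusted p = 0.00191). miR-27a-3p had 665, 180.3 and 679 against 1130.4, 867 and 756 and did not pass (-0.85 ± 0.67 (SE), adjusted p = 0.251). miRNAs made up 19.3% of counts in AGO2 KO and 81.8% in WT, and per miRNA total 0 of the 6 falls were called and miR-27a-3p was higher at 1.155 (adjusted p = 0.0151), below a median of 3.18 over all miRNAs. 2 hairpins shifted toward the 5p arm (19.3% of all), miR-24-2 (2.18 ± 0.75, adjusted p = 0.0221) and miR-27b (1.59 ± 0.64, adjusted p = 0.0461). Leaving out any 1 of the 6 libraries left 0 or 1 of these calls.

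With the pan-AGO antibody, in AGO1/2/3 KO 1 member was higher and 4 lower than in WT, where 12.4% and 25.4% of tested miRNAs were called. miR-27b-5p, a passenger in WT, had 230.4, 264 and 49.6 CPM in AGO1/2/3 KO against 31.1, 24.5 and 31.7 in WT (2.64 ± 0.60 (SE), adjusted p = 0.000684). Its guide miR-27b-3p had 33.1, 50.8 and 3.40 against 175, 120.3 and 242 (-2.63 ± 0.71 (SE), adjusted p = 0.00348). The 5p arm thus held 87.4, 83.9 and 93.6% of miR-27b counts in the AGO1/2/3 KO pulldown and 15.1, 16.9 and 11.6% in WT, with no overlap (shift 5.56 ± 0.64 (SE), adjusted p = 4.03e-07). The groups lay apart in both strands, and replicate 3 of AGO1/2/3 KO was the lowest of its group in both.

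miR-24-3p (-2.92 ± 0.76), miR-23a-3p (-2.49 ± 0.66) and miR-27a-3p (-1.90 ± 0.69) also fell (log2 differences ± SE, adjusted p = 0.00258, 0.003 and 0.0274). Per miRNA total 0 of these 4 falls were called, miR-23b-3p was higher, at 0.96 (adjusted p = 0.0178), and all 5 5p strands were higher, from 1.67 for miR-24-2-5p to 4.85 for miR-27b-5p. But 1688 of 2632 tested miRNAs were called higher there, with a median of 2.52, so that miR-24-2-5p, miR-23a-5p (1.70) and miR-27a-5p (2.29) lay below the middle of all miRNAs. The rise of miR-27b-5p was called on every scale. Without AGO1/2/3 KO replicate 3, miR-27a-3p lost its call, at -1.44 (adjusted p = 0.111), and the other 3 falls and the rise kept theirs. All 5 hairpins shifted toward the 5p arm (31.7% of all), and 3 did without replicate 1 or 3 of AGO1/2/3 KO or replicate 3 of WT. In AGO1/2 KO 0 members were higher and 1 lower, miR-27b-3p (-2.29 ± 0.70 (SE), adjusted p = 0.0225), where 2.08% and 12.7% were called. The call was lost without AGO1/2 KO replicate 3 or WT replicate 3. Per miRNA total it was lost too, at -1.21 (adjusted p = 0.0702), and 3 members were higher and 0 lower, miR-23a-5p, miR-27a-5p and miR-27b-5p at 2.06, 2.58 and 2.25, where the median of all was 1.00. In the pulldown of AGO1/2 KO 3 hairpins shifted toward the 5p arm (18.1% of all), miR-27b by 3.46 ± 0.64, miR-27a by 2.26 ± 0.67 and miR-23a by 1.55 ± 0.56. Without AGO1/2 KO replicate 3 or WT replicate 3, 1 did.

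Set against AGO1/2 KO, the AGO1/2/3 KO pan-AGO pulldown had 0 members higher and 1 lower, where 1.85% and 8.76% of tested miRNAs were called. That 1 was miR-23a-3p, with 4702, 4438 and 832 CPM in AGO1/2/3 KO against 8297, 15800.1 and 14009.8 in AGO1/2 KO (-1.93 ± 0.65 (SE), adjusted p = 0.0491). Leaving out AGO1/2/3 KO replicate 3 moved it to -1.47 (adjusted p = 0.127) with miR-27b-5p called in its place. Without replicate 2 of AGO1/2/3 KO, or replicate 2 or 3 of AGO1/2 KO, 0 members were called. Without replicate 1 of AGO1/2/3 KO there were 2, and without that of AGO1/2 KO there were 3. 1 hairpin, miR-27b, shifted further toward the 5p arm (2.10 ± 0.64, adjusted p = 0.0247, against 10.4% of all). Without AGO1/2/3 KO replicate 3, or without AGO1/2 KO replicate 1 or 2, 0 hairpins did.

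In WT cells each pulldown was set against whole-cell RNA or another pulldown. Values here are counts per 1000000 miRNA counts. The median of all tested miRNAs lay far from 0 on this scale, at -2.15 for the pan-AGO pulldown and -4.03 for the AGO2 pulldown, each against whole-cell RNA. In the pan-AGO pulldown 3 members were higher and 4 lower than in whole-cell RNA, where 5.52% and 63.7% of 2191 tested miRNAs were. miR-27a-3p had 1143, 1246 and 1881 CPM in the pan-AGO pulldown against 423, 415 and 408 in whole-cell RNA (1.78 ± 0.33 (SE), adjusted p = 0.000182). Its partner miR-27a-5p had 132, 133 and 104 against 426, 446 and 447 (-1.84 ± 0.39 (SE), adjusted p = 0.000548). In the pulldown the 5p arm held 10.3, 9.66 and 5.22% of miR-27a counts, against 50.2, 51.8 and 52.3% in whole-cell RNA.

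miR-23a-3p (0.86 ± 0.17) and miR-23b-3p (0.81 ± 0.20) were also higher in the pan-AGO pulldown, and miR-23b-5p (-2.85 ± 0.49) and miR-23a-5p (-0.85 ± 0.32) lower (SE, the largest adjusted p being 0.0251). miR-23a-5p and miR-27a-5p lay above the median of -2.15 over all tested miRNAs, so their falls on this scale are no result about the members. miR-24-3p was the exception among the guides. It had 2852, 2659 and 2545 CPM in the pan-AGO pulldown against 17117, 18572 and 16579 in whole-cell RNA, 6.49-fold lower (-2.70 ± 0.33 (SE), adjusted p = 2.09e-06), while the AGO2 pulldown had 19784, 19995 and 17328. The rises of the 3 guides were called on every scale. On other scales the miR-24-3p difference lost its call, at -0.54 (adjusted p = 0.432) with TMM and 0.29 (adjusted p = 0.653) per total of all counted RNAs, and miR-23a-5p and miR-27a-5p turned, to 1.24 and 0.29 with TMM.

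The AGO2 pulldown had 3 members higher and 4 lower than whole-cell RNA, where 3.65% and 80.8% of tested miRNAs were. The 3 were the guides miR-27a-3p (1.44 ± 0.33), miR-23b-3p (0.56 ± 0.20) and miR-23a-3p (0.45 ± 0.17), and the 4 were 5p strands led by miR-23b-5p (-2.39 ± 0.47). All 4 lay above the median of -4.03 over all tested miRNAs, so their falls are no result about the members. With TMM, and per total of all counted RNAs, those 4 5p strands turned higher in the AGO2 pulldown. The strand balances do not depend on that choice. 4 of 5 hairpins were shifted toward the 3p arm in the AGO2 pulldown (30.1% of 279), from -1.65 ± 0.35 in miR-23a to -3.28 ± 0.65 in miR-27a. In the pan-AGO pulldown the same 4 were (32.3% of all), with miR-23b at -3.75 ± 0.45 and miR-27b at -1.21 ± 0.44 (adjusted p = 0.0339). The fifth, miR-24-2, shifted toward the 5p arm in the pan-AGO pulldown (3.43 ± 0.68, adjusted p = 0.000841, against 22.2% of all), and its denominator is miR-24-3p.

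**Figure D4:**
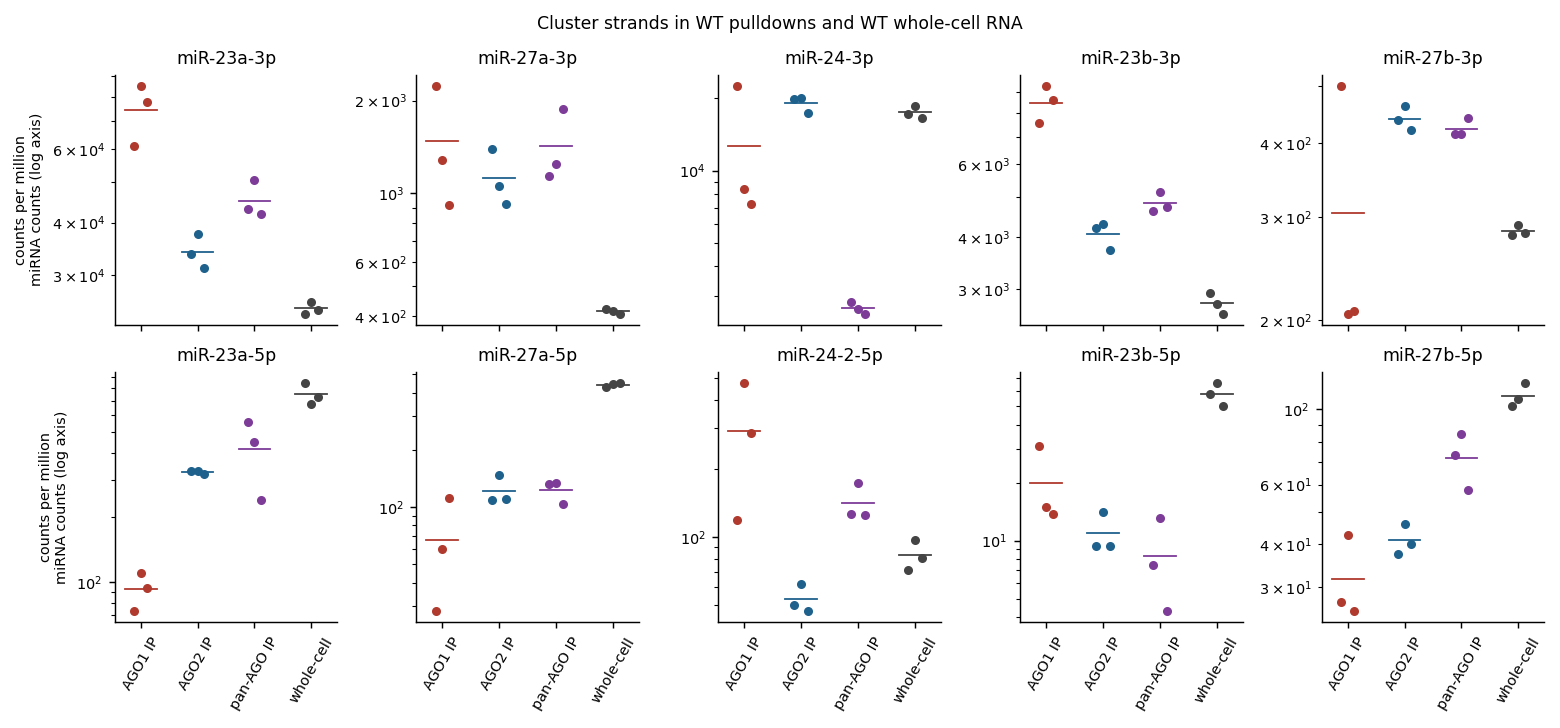
Counts per 1000000 miRNA counts (log axis) of the 10 cluster strands in WT AGO1, AGO2 and pan-AGO pulldowns and WT whole-cell RNA, 3 points and a mean line per group. miR-24-3p is lowest in the pan-AGO pulldown, miR-24-2-5p is lowest in the AGO2 pulldown, and the other 5p strands are highest in whole-cell RNA.

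The AGO1 and AGO2 pulldowns differed in 5 members, 3 higher and 2 lower with AGO1, where 81.5% and 3.15% of tested miRNAs were called. With so large a share of all miRNAs higher (median 3.43), the 3 members on that side are no result about the members, and on the other scales none of the 3 was higher: miR-23a-3p was -1.18 and miR-23b-3p -1.22 per total of all counted RNAs. The 2 members lower were 5p strands, and the clearest was miR-23a-5p with 73.3, 110.3 and 93.9 CPM in the AGO1 pulldown against 329, 329 and 317 in the AGO2 pulldown (-1.82 ± 0.33 (SE), adjusted p = 8.46e-05). The other, miR-27a-5p (-0.89 ± 0.39 (SE), adjusted p = 0.0446), overlapped between the groups and lost its call without WT AGO1 IP replicate 1. miR-24-2-5p had 118, 474 and 288 against 50.4, 62.3 and 47.2 (2.45 ± 0.42 (SE), adjusted p = 4.2e-05), and per total of all counted RNAs the difference was -0.017 (adjusted p = 0.973). These fits did not pair same-numbered libraries. A fit of the 2 groups with a block for replicate number called 6 members.

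Within libraries, 2 hairpins of the miR-23a cluster had different strand balances in the AGO1 and AGO2 pulldowns and moved in opposite directions. The miR-23a hairpin lay further toward the 3p arm with AGO1, at -9.69, -9.57 and -9.68 against -6.67, -6.84 and -6.61 with AGO2 (-2.94 ± 0.35 (SE), adjusted p = 6.39e-05, against 27.6% of all hairpins). The miR-24-2 hairpin lay further toward the 5p arm with AGO1, at -7.56, -4.14 and -4.65 against -8.61, -8.32 and -8.52 (3.04 ± 0.68, adjusted p = 0.00351, against 21.5% of all). Neither pair of groups overlapped. In miR-24-2 AGO1 replicate 1 lay close to the AGO2 libraries and apart from replicates 2 and 3. Without it the shift was 4.09 for miR-24-2 and -2.92 for miR-23a, both called, and the AGO1 pulldown was then also lower in miR-24-3p (-1.29 (adjusted p = 3.39e-07)) and in miR-27b-3p (-1.09 (adjusted p = 0.000455)), whereas with all libraries these were -0.59 ± 0.31 and -0.53 ± 0.33 and did not pass.

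The guides miR-24-3p and miR-23a-3p were the most abundant members in WT whole-cell RNA, and their ratio within a library differed between genotypes and between pulldowns. This ratio was added after the values were seen. Its log2 was -2.07, -2.29 and -2.20 in the AGO1/2/3 KO libraries, -1.68, -1.64 and -1.83 in those of AGO1/2 KO and -1.20, -0.65 and -1.29 in those of AGO2 KO, against -0.50, -0.48 and -0.57 in WT whole-cell libraries. Those 3 knockout groups lay below WT without overlap. AGO1 KO, at -0.49, -0.25 and -0.53, overlapped WT. The TNRC6 knockouts stayed within -0.62 to -0.26, with TNRC6A/B KO above WT.

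Among pulldowns the log2 ratio was -4.61, -4.43 and -4.11 with pan-AGO in AGO1/2/3 KO cells, -4.92, -4.54 and -4.55 in AGO1/2 KO cells and -3.92, -4.25 and -4.04 in WT. All 9 pan-AGO libraries were thus below every other library. It was -1.44, -3.35 and -3.43 with AGO1 in WT, where replicate 1 stood between the other 2 and the AGO2 pulldown, and -0.76, -0.91 and -0.84 with AGO2. WT pan-AGO pulldown and WT whole-cell RNA differed by -3.55 on this log2 scale, AGO1/2/3 KO and WT whole-cell RNA by -1.67. Each comparison without overlap had a two-sided exact permutation p of 0.1, the smallest that 3 against 3 libraries allow, and 0.16 after adjustment over 16 comparisons, a design that cannot reach 0.05.

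The split between paralogs also differed between genotypes, within the uncertainty of telling them apart. miR-23a-3p outnumbered miR-23b-3p in all 45 libraries. The log2 ratio was 2.16, 2.39 and 2.26 in AGO1/2/3 KO whole-cell RNA against 3.04, 3.23 and 3.24 in WT, a difference of -0.90. In the pan-AGO pulldown it was 1.94, 2.03 and 2.02 in AGO1/2/3 KO against 3.22, 3.29 and 3.15 in WT (-1.22). In AGO1/2 KO, with AGO3 present, it lay on the other side, at 3.78, 3.50 and 3.49 in whole-cell RNA and 3.29, 3.52 and 3.42 in the pan-AGO pulldown, 0.42 and 0.19 above WT. AGO2 KO was also above WT, by 0.66 in whole-cell RNA and 0.65 in the AGO2 pulldown. Whole-cell RNA of TNRC6A KO, at 2.75, 2.81 and 2.93, and of TNRC6A/B KO, at 2.83, 3.03 and 2.66, lay below WT, as did the AGO1 pulldown of AGO1 KO, at 2.95, 2.89 and 2.46 against 3.02, 3.19 and 3.18. None of these groups overlapped its WT group, although in the AGO1/2 KO pan-AGO pulldown the lowest library lay just above the highest WT library.

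Few counts lie behind some miR-27 ratios, with 27 of miR-27b-3p over the AGO1/2/3 KO and 40 over the AGO1/2 KO whole-cell libraries. The miR-27a-3p to miR-27b-3p ratio was higher than WT in AGO2 KO, AGO1/2 KO, AGO1/2/3 KO and TNRC6B KO whole-cell RNA. Its log2 was 1.89, 1.91 and 1.42 in whole-cell RNA of AGO2 KO, 1.90, 1.93 and 1.58 in that of AGO1/2 KO and 0.89, 1.82 and 1.12 in that of AGO1/2/3 KO, and 1.59, 1.70 and 1.00 in that of TNRC6B KO, against 0.59, 0.51 and 0.54 in WT. In the pan-AGO pulldown it was 2.36, 2.51 and 3.57 in AGO1/2/3 KO cells and 3.46, 3.26 and 2.86 in AGO1/2 KO cells, against 1.46, 1.59 and 2.09 in WT. In the AGO2 pulldown it was 3.29, 2.82 and 3.17 in AGO2 KO against 1.67, 1.19 and 1.13 in WT. It was higher in WT pulldowns than in WT whole-cell RNA too, by 1.17 with pan-AGO and 0.78 with AGO2. The exact permutation p was 0.1 wherever groups did not overlap, 0.145 after adjustment over 16 comparisons for the miR-23 ratio and 0.16 for the miR-27 ratio.

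**Figure D5:**
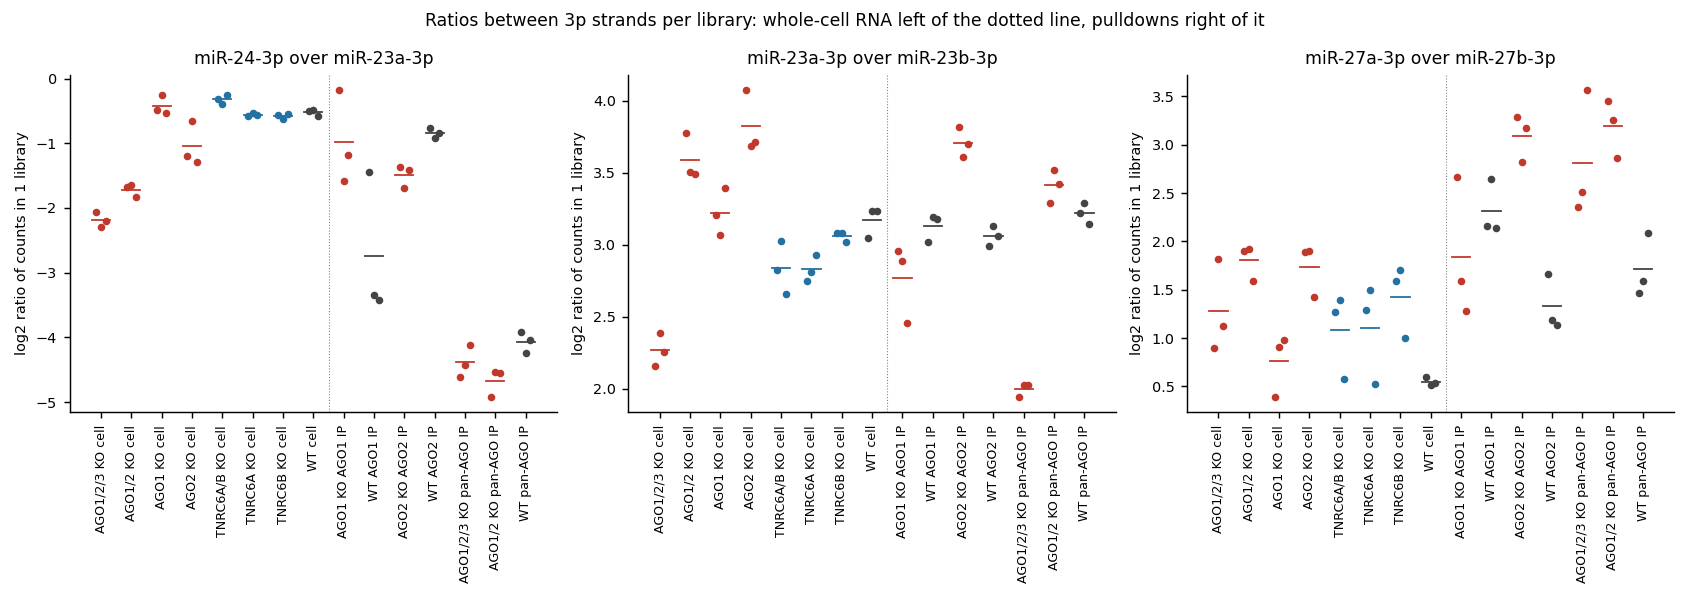
Log2 ratios of counts between 3p strands in each of the 45 libraries, 3 points and a mean line per group, with whole-cell RNA left of the dotted line and pulldowns right of it. miR-24-3p over miR-23a-3p is lowest in the 9 pan-AGO libraries, and miR-23a-3p over miR-23b-3p is lowest in AGO1/2/3 KO in both kinds of library.

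Together the 10 strands held 3.72, 3.12 and 2.84% of miRNA counts in AGO1/2/3 KO cells, 3.71, 3.89 and 3.43% in AGO1/2 KO cells and 3.33, 2.24 and 2.89% in AGO1 KO cells, against 4.65, 4.93 and 4.599% in WT whole-cell RNA, all without overlap. Each TNRC6 knockout had a higher share than WT, again without overlap. TNRC6A KO libraries held 7.45, 7.41 and 7.44%, TNRC6B KO libraries 5.28, 5.21 and 5.30% and TNRC6A/B KO libraries 6.61, 6.30 and 6.41%. In WT pulldowns the share was 9.41, 10.5 and 9.53% with AGO1, 5.995, 6.41 and 5.40% with AGO2 and 5.30, 6.09 and 5.21% with pan-AGO. In the AGO1 pulldown of AGO1 KO cells it was 1.71, 1.26 and 0.692%. Where groups did not overlap the exact permutation p was 0.1, and 0.133 after adjustment over 16 comparisons.

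Over the 8 whole-cell group means of log2 CPM, each 3p strand was compared with 555 other miRNAs that averaged at least 100 TMM-scaled CPM. The 3 with the highest Pearson r were let-7d-5p (r = 0.99), miR-26b-5p (r = 0.99), miR-183-5p (r = 0.99) for miR-24-3p, let-7e-5p (r = 0.99), miR-935 (r = 0.98), miR-425-3p (r = 0.97) for miR-23a-3p and miR-1229-3p (r = 1.00), let-7c-5p (r = 0.97), miR-421 (r = 0.97) for miR-27b-3p. For miR-27a-3p they were miR-365b-3p (r = 0.98), miR-99b-3p (r = 0.97), miR-30b-5p (r = 0.97), and for miR-23b-3p miR-1910-3p (r = 0.96), miR-6516-3p (r = 0.95), miR-1224-5p (r = 0.94). The 8 points share their libraries and scaling factors. let-7d-5p, miR-26b-5p and miR-183-5p, the closest to miR-24-3p, had log2 differences of -3.52, -2.46 and -3.47 in AGO1/2/3 KO, beside -3.58 for miR-24-3p. These miRNAs were picked on group means that include AGO1/2/3 KO and WT, so their similar falls follow from the choice and are no separate result. Between members of one cluster, r was 0.97 for miR-23a-3p with miR-27a-3p and 0.91 for miR-23b-3p with miR-27b-3p. Across the clusters it was 0.92 for miR-23b-3p with miR-27a-3p, 0.88 for miR-23a-3p with miR-27b-3p, 0.88 for the miR-23 guides and 0.90 for the miR-27 guides. Across the arms of a hairpin it was -0.84 for miR-23a, -0.92 for miR-27a, -0.66 for miR-23b and -0.31 for miR-27b, and it was positive, at 0.40, for miR-24-3p with miR-24-2-5p.

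Relatives outside the clusters were few. miR-23c shares the seed of miR-23a-3p and had 8.05, 25.8 and 4.42 TMM-scaled CPM in WT whole-cell RNA. It was higher in TNRC6A/B KO (1.72 ± 0.54 (SE), adjusted p = 0.0083) and did not pass in AGO1/2/3 KO (0.66 ± 0.76 (SE), adjusted p = 0.631). miR-9985 shares the seed of the miR-27 guides. It was higher in AGO1/2 KO (1.29 ± 0.34 (SE), adjusted p = 0.00892) and did not pass in AGO1/2/3 KO (0.062 ± 0.38 (SE), adjusted p = 0.932). miR-128-3p carries an 8-base run of miR-27a-3p, UCACAGUG, 1 base nearer its 5′ end. It had 215, 183 and 83.5 in AGO1/2/3 KO against 1915, 1880.3 and 1709.6 in WT (-3.51 ± 0.36 (SE), adjusted p = 2.96e-10), beside -1.31 for miR-27a-3p and -2.10 for miR-27b-3p. The differences between these miRNAs were not tested. miR-24-1-5p, the 5p strand of the other miR-24 hairpin, was higher in TNRC6A KO (1.48 ± 0.62 (SE), adjusted p = 0.05), TNRC6B KO (1.62 ± 0.62 (SE), adjusted p = 0.0333) and TNRC6A/B KO (1.83 ± 0.58 (SE), adjusted p = 0.00949) from few counts, and did not pass in AGO1/2/3 KO (-0.90 ± 1.09 (SE), adjusted p = 0.649).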

How the data were processed

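Small RNA was sequenced from 45 libraries of HCT116 cells, and the authors deposited whole-number read counts per RNA feature, 1 table per library. The submitters' processing notes name cutadapt 1.16, Bowtie 1.1.2 and GRCh38, with settings not given in the sources used here. Sequence-variant entries were summed with their miRNA. The members, the comparisons, the marker lists and the miRNAs named for likeness or seed were chosen with earlier results of these data known. The rule for other named miRNAs took the 3 highest Pearson r per 3p strand, miRNAs that share a 3p seed, miR-128-3p and miR-24-1-5p.

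edgeR 4.0.16 (R 4.3.3) fitted quasi-likelihood models to the deposited counts of all miRNAs that passed its filter (minimum count 10, minimum total 15), with Benjamini-Hochberg adjustment over them. All 10 members passed in each fit. Whole-cell libraries were fitted together with TMM, knockout pulldowns together with the total of all counted RNAs as library size, and the 12 WT libraries with the miRNA total, so a fold depends on these scales. Strand balances were fitted with limma 3.58.1 on log2 ratios with a pseudocount of 0.5, over hairpins with a mean of at least 10 counts in the minor arm and 50 in both. Other ratios and shares were compared by exact permutation tests (SciPy 1.17.1). The procedures were tested on simulated data in fits of 2 groups. For AGO1/2/3 KO against WT, 63% of simulated 2-fold and 99% of 4-fold changes were called in whole-cell RNA. In the pan-AGO pulldown 10% and 56% were, so a strand that did not pass there may still differ.

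Alternatives were other scalings, DESeq2 1.42.0, no filter on low counts, other pseudocounts and arm filters, fits of 2 groups, a block for replicate number and each library left out in turn. The ratio of miR-24-3p to miR-23a-3p, the test of pulldown against whole-cell effects, the hairpin entries and the values without libraries that stood apart were added after the data were seen. Same-numbered libraries met a rule for pairs where every r of their deviations from the group mean was above 0.1. That held in 1 comparison, WT AGO1 against AGO2 pulldowns (r = 0.21, 0.12 and 0.13). Its values in the results still come from the fit without pairs, and the block for replicate number was only an alternative. AGO1 KO against WT AGO1 pulldowns missed the rule narrowly (r = 0.39, 0.09996 and 0.59). It was also fitted without pairs, although 2 of its values were larger.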

Additional observations from a re-analysis of the deposited data

Results flagged for a closer look

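Entries named for the hairpins themselves, which entered no comparison above, had counts in the Argonaute knockouts above those in WT. Which part of a hairpin these short reads cover is not given. Hairpin entries of other miRNAs were not compared, so the difference cannot be read as particular to these clusters. Summed over the 6 hairpins of both clusters they held 0.913, 0.686 and 0.498 counts per 1000000 counted RNAs in AGO1 KO (mean 0.699), 0.532, 2.81 and 0.444 in AGO2 KO (mean 1.26), 1.54, 0.817 and 1.75 in AGO1/2 KO (mean 1.37) and 1.83, 1.97 and 2.65 in AGO1/2/3 KO (mean 2.15), against 0, 0 and 0.364 in WT whole-cell RNA. The sums behind them were 17, 17, 20, 24 and 2 counts. The TNRC6A KO, TNRC6B KO and TNRC6A/B KO libraries held 0, 1 and 0. Each Argonaute knockout lay above WT without overlap (two-sided exact permutation p = 0.1, the smallest possible, 0.16 after adjustment over 8 comparisons). This measure was added after the data were seen.

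The effect of the AGO1/2/3 knockout differed between pan-AGO pulldown and whole-cell RNA for 2 members. In an interaction test in 1 fit over both kinds of library, per miRNA total, the effect in the pulldown minus that in whole-cell RNA was 1.85 ± 0.39 for miR-24-3p (SE, adjusted p = 0.00189) and 1.82 ± 0.47 for miR-27b-5p (adjusted p = 0.0108), n = 3 per group, where 225 of 1726 tested miRNAs were called. A count of 2 is near that background. In separate fits on this scale the median effect over all tested miRNAs was 2.52 in the pulldown and 1.30 in whole-cell RNA. The middle of the miRNAs was thus also more positive in the pulldown, although these fits tested different sets, 2632 and 1990 miRNAs. Neither difference can be read as particular to the members. Both depended on the scale. With TMM the called members were miR-23a-5p (-2.31, adjusted p = 0.0448) and miR-23b-5p (-2.04, adjusted p = 0.0132), and per total of all counted RNAs no member was. The test was added after the data were seen.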

How the results depend on the processing

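In AGO1/2/3 KO whole-cell RNA 8 or 9 members were called without each library in turn, and of the 9 called members 1, miR-23b-3p, turned under an alternative, to 0.11 per miRNA total. Knockout pulldowns depended on the scale. Per miRNA total, in AGO1 KO against WT AGO1 pulldowns miR-23a-5p was 0.87 and miR-24-2-5p 1.96. In AGO2 KO against WT AGO2 pulldowns miR-23a-3p was 0.30, miR-23a-5p 0.61, miR-24-2-5p 1.84, miR-27a-3p 1.155 and miR-27a-5p 1.37. In AGO1/2/3 KO against WT pan-AGO pulldowns miR-23a-5p was 1.70, miR-23b-3p 0.96, miR-24-2-5p 1.67, miR-27a-3p 0.41 and miR-27a-5p 2.29. All of these had the other sign per total of all counted RNAs, and the cause was not tested.

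WT pulldowns turned likewise, here with TMM, per total of all counted RNAs and by DESeq2, in that order. For AGO1 against AGO2 the log2 differences were miR-23a-3p -1.81, -1.18 and -1.94, miR-23b-3p -1.86, -1.22 and -1.99, miR-23b-5p -1.85, -1.22 and -1.99, miR-24-2-5p -0.66, -0.017 and -0.78 and miR-27a-3p -2.28, -1.64 and -2.44. For AGO2 against whole-cell RNA they were miR-23a-5p 2.31, 2.76 and 2.41, miR-23b-5p 1.104, 1.55 and 1.20, miR-24-2-5p 2.86, 3.31 and 2.96, miR-27a-5p 1.66, 2.11 and 1.75 and miR-27b-5p 2.10, 2.55 and 2.20. The pan-AGO pulldown against whole-cell RNA gave miR-23a-5p 1.24, 2.08 and 1.12, miR-27a-5p 0.29, 1.13 and 0.18 and miR-27b-5p 1.5003, 2.34 and 1.39, and per total of all counted RNAs miR-23b-5p was 0.015 and miR-24-3p 0.29.

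Counts of called members changed by over 1.5 times as follows. Per total of all counted RNAs there were 1 in AGO2 KO whole-cell RNA, 5 in TNRC6B KO (3 higher, 2 lower) and 9 for AGO1 against AGO2 pulldowns. Per miRNA total there were 3 in the AGO2 KO pulldown, 3 in the AGO1/2 KO pan-AGO pulldown, all higher, and 2 for AGO1/2/3 KO against AGO1/2 KO pan-AGO pulldowns. With TMM the last comparison had 2 and AGO1 against AGO2 9. By DESeq2 there were 1 in AGO2 KO whole-cell RNA, 10 in the AGO2 KO pulldown, 2 in the AGO1/2 KO pan-AGO pulldown, 5 for AGO1/2/3 KO against AGO1/2 KO pan-AGO pulldowns and 10 for AGO1 against AGO2. Fits of only the 2 groups compared gave 5 in TNRC6B KO (2 higher, 3 lower), 2 in the AGO1/2 KO and 0 in the AGO1/2/3 KO against AGO1/2 KO pan-AGO pulldowns, and no filter on low counts gave 0 in the last.

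Hairpins called in AGO1 KO whole-cell RNA were 2 with a pseudocount of 1, 0 with a lower count limit, 0 without variant entries and 3 in the fit of 2 groups. The lower limit also gave 2 for AGO1/2/3 KO against AGO1/2 KO whole-cell RNA, 0 for their pan-AGO pulldowns and 1 in the AGO2 KO pulldown, and the fit of 2 groups 3 of 3 testable in the AGO1 KO pulldown. As a share of all counted RNAs, the members' difference in percentage points was -3.60 in the AGO2 KO pulldown, -0.748 and -1.80 in AGO1/2 KO and AGO1/2/3 KO pan-AGO pulldowns and -3.16 for AGO1 against AGO2. The test of pulldown against whole-cell effects called 0 members per total of all counted RNAs.

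The replicate number was tried as a block in fits of 2 groups. It gave 2 members in the AGO1/2/3 KO pan-AGO pulldown, both lower, so that the rise of miR-27b-5p was not called, 0 for AGO1/2/3 KO against AGO1/2 KO pan-AGO pulldowns, 2 hairpins in AGO1 KO whole-cell RNA and 3 of 3 testable in the AGO1 KO pulldown, and moved no other count of called members or hairpins by over 1.5 times. For WT AGO1 against AGO2 pulldowns, where the numbers met the rule for pairs but the main fit had none, it gave 6 members and 2 hairpins. For AGO1 KO against WT AGO1 pulldowns, which missed the rule for pairs narrowly, it gave 6 members.

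Without each library in turn, called members ranged from 2 to 4 in AGO1 KO, 0 to 1 in AGO2 KO, 3 to 5 in AGO1/2 KO and 1 to 3 in AGO1/2/3 KO against AGO1/2 KO whole-cell RNA, and from 0 to 1 in the AGO1/2 KO and 0 to 3 in the AGO1/2/3 KO against AGO1/2 KO pan-AGO pulldowns. Called hairpins ranged from 0 to 4 in AGO1 KO and 0 to 1 in AGO2 KO whole-cell RNA, 0 to 1 in the AGO2 KO pulldown, and 1 to 3, 3 to 5 and 0 to 1 in pan-AGO pulldowns of AGO1/2 KO, AGO1/2/3 KO and AGO1/2/3 KO against AGO1/2 KO. The log2 ratio of miR-23a-3p over miR-23b-3p differed by -0.031 to 0.13 in AGO1 KO and -0.014 to 0.086 in WT pan-AGO pulldowns against whole-cell RNA, both around 0. The share difference in AGO1/2/3 KO pan-AGO pulldowns was -0.512 to 0.681 percentage points. Counts limit some 5p strands, such as miR-23b-5p with 3 counts in the AGO1 KO pulldowns. They also limit miR-27b-3p, with 27 counts over the AGO1/2/3 KO whole-cell libraries and 6 in the AGO1 KO pulldowns.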
